A study of Bos taurus with 6 samples.

Results

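The genes described here handle fatty acids in the cumulus cells of the cow, the somatic layers around an oocyte. They cover the breakdown of fatty acids in mitochondria, their synthesis and desaturation, their activation and binding, and their storage as triglyceride in lipid droplets, together with the PPAR nuclear receptors that sense them. The list held 45 genes, chosen by symbol, and 41 of them had at least 1 probe set, out of 9155 genes named on the array. CPT1A, ETFDH, FADS1 and ACSL4 had no probe set in the annotation used here. The members had 54 probe sets out of 24016. Each of 32 genes had 1 probe set, and each of the other 9 was read from the probe set with the highest mean over the 6 arrays.

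RNA came from pooled cumulus cells of crossbred cows, Bos indicus x Bos taurus, whose ovaries were taken after slaughter. The large-follicle group was 3 arrays, from complexes of follicles measuring 8 mm or more, which the submitters call competent. The small-follicle group was 3 arrays, from complexes of follicles measuring 1 to 3 mm, which they call incompetent. Follicle size stands in this model for the ability of the oocyte to form a blastocyst, and the ability of the oocytes of these pools was not measured on the arrays. Per the labels, both groups were handled alike. The sources used here do not give the animals' age or the number of cows and complexes per pool, so a p-value covers only the spread from pool to pool. Precision is limited by the number of arrays.

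Fatty acids enter mitochondria through the carnitine shuttle and are shortened there by beta-oxidation, which feeds the respiratory chain. In the cytosol, ATP citrate lyase, acetyl-CoA carboxylase and fatty acid synthase build new fatty acids, which elongases and desaturases then modify. Fatty acids that are not used are joined to glycerol and kept in lipid droplets, whose surface is coated by perilipins. Cumulus cells are known to pass fatty acids and other metabolites to the oocyte, and beta-oxidation is known to matter for oocyte maturation.

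The arrays carried most of the measured markers of the labelled cell type. In that list FOXL2, at a mean of 4.73, lay under the median of all probe set means, and KITLG, at 2.70, under the lower quartile. Of 11 measured granulosa and cumulus markers 7 were higher in large-follicle arrays by limma (63.6%, against 7.08% of all genes). INHBA, a subunit of activin, averaged 14.07 against 12.93 on the log2 scale. Summed as linear signal, these 11 markers ranged from 46879 to 48957 in large-follicle arrays and from 26980 to 31028 in small-follicle arrays. Macrophage and leukocyte markers summed to 265 to 625 against 214 to 348. Of the 9 measured, LCP1 and CORO1A were called higher (22.2%, against 7.08% of all genes) and all 9 had a positive difference. Among them 7 lay under the median of all probe set means (5.67), CSF1R and AIF1 lay above it, and PTPRC alone lay under the lower quartile (3.83). Adipocyte markers, of which 6 of 7 were measured, summed to 135 to 156 against 149 to 191, and none was called by limma. At an unadjusted p under 0.05 there was 1 in each direction, GPD1 lower (-0.47) and CIDEC higher (0.44), each without overlap of the groups. GPD1, the brightest of the 6, averaged 6.36 against 6.84, and ADIPOQ, CIDEC and THRSP lay below that quartile. Endothelial markers summed to 126 to 145 against 115 to 135, with TEK called lower (1 of 7, 14.3%, against 8.3% of all genes). No endothelial marker was called higher (against 7.08%), though 5 had a positive difference. Among these, VWF (0.46) and PECAM1 (0.19) had groups that did not overlap. TEK, KDR and EMCN lay below that quartile. In the theca list, NR2F2 was called lower (1 of 5, 20%, against 8.3% of all genes). The theca sums were 943 to 1043 against 796 to 1286. No theca marker was called higher (against 7.08%), though the other 4 had positive differences. These were 0.91 for STAR, 0.31 for LHCGR, 0.12 for CYP17A1 and 0.03 for INSL3. Of the 4, only LHCGR, under the lower quartile, had groups that did not overlap. INSL3 was bright in both groups, at means of 9.41 and 9.38, and 3 of the 5 theca markers lay below the median of all probe set means. In RNA from pools, fewer cells of a type and less RNA per cell cannot be told apart. A sign of RNA quality also differed. The log2 signal of the 3' minus the 5' probe sets of 6 bovine control transcripts was 2.15, 1.77 and 2.01 in large-follicle arrays and 2.68, 2.53 and 2.16 in small-follicle arrays (2-sided exact permutation p = 0.1, the smallest that 3 against 3 arrays can give). This 3'-minus-5' index was lower in every large-follicle array than in every small-follicle array, so it and follicle size cannot be fully told apart. Its part in the results was not tested. Values with the index in the model are given for the called members and for some of the others.

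Of all members 7 were called, and the other 34 were not. By limma, at a Benjamini-Hochberg adjusted p under 0.05 over the whole array, 4 of 41 members were higher in large-follicle arrays, the droplet coat genes PLIN2 and PLIN3, the binding protein gene FABP3 and the receptor gene PPARG. These are 9.76% of the members, against 7.08% of all genes called higher. FASN, ELOVL6 and ACSL3, 3 members or 7.32%, were lower, against 8.3% of all genes. Over their 54 single probe sets the members had 4 calls higher and 6 lower, where 5.72% and 7.16% of all 24016 were called. The 6 lower include all 3 of ACSL3 and a dim one of PPARA. Of the 41 members, 5 had every large-follicle array above every small-follicle array (12.2%, against 17.6% of all genes) and 9 the reverse (22.0%, against 18.9%). By gene, the members' shares lay near these background shares, so the counts are a description of single genes. The median log2 difference of the members, large-follicle minus small-follicle, was -0.02, against 0.01 over all genes.

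**Figure D1:**
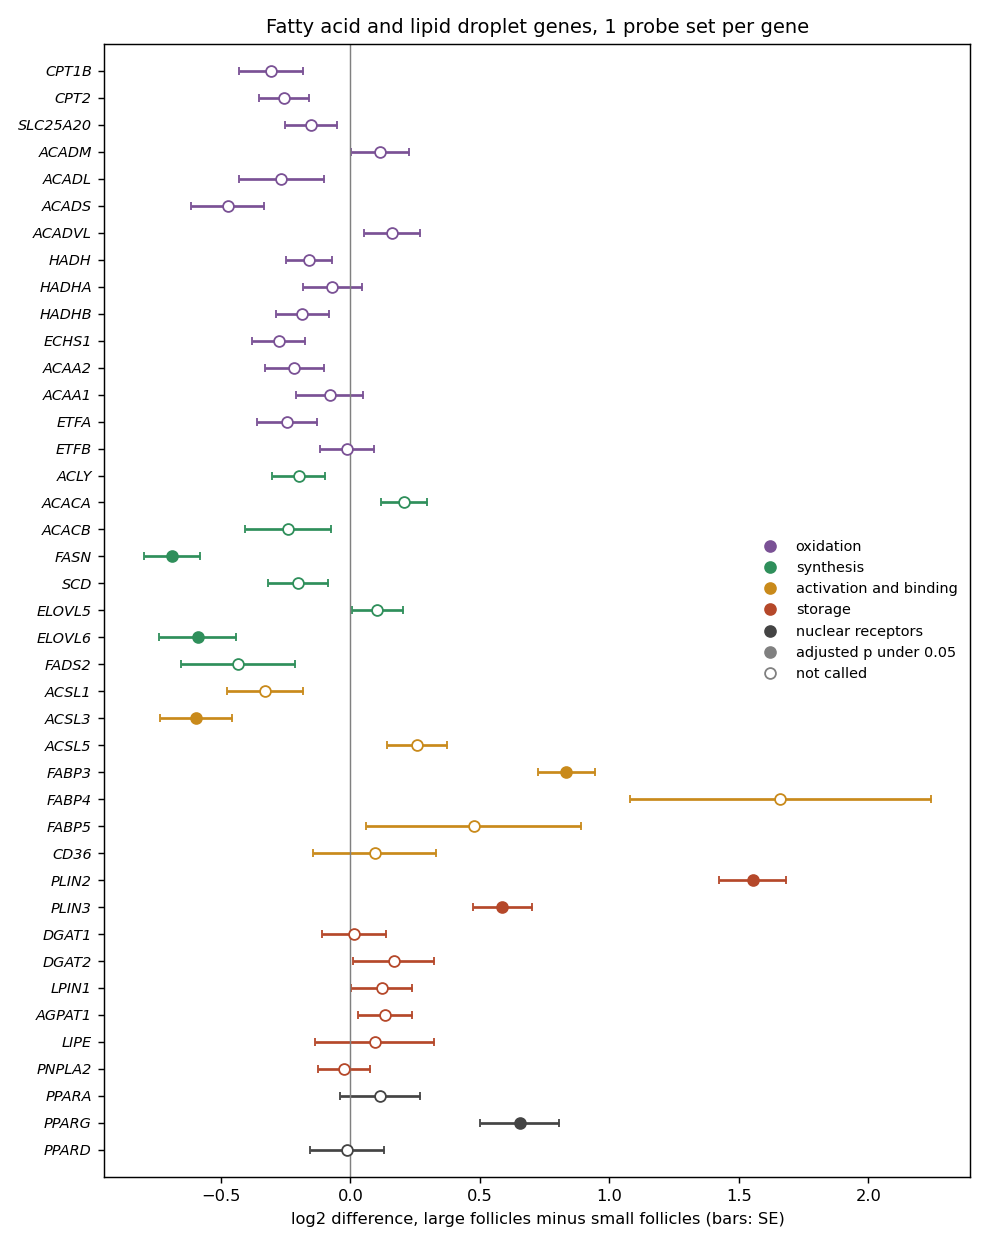
Log2 difference, large-follicle minus small-follicle arrays, for the 41 members, grouped by role, with the SE from limma as bars and filled points for genes with an adjusted p under 0.05. PLIN2 at 1.55, FABP3, PPARG and PLIN3 lie to the right of 0, FASN, ELOVL6 and ACSL3 to the left, and the widest bar is that of FABP4 (1.66 ± 0.58).

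Among the members the clearest increase was that of the droplet coat gene PLIN2. PLIN5, a perilipin outside the member list, was called lower instead (-1.07). PLIN2, the perilipin found on droplets of most cell types, read 11.18, 10.96 and 11.02 in large-follicle arrays and 9.29, 9.49 and 9.72 in small-follicle arrays. All 3 large-follicle arrays were high and the groups were far apart. The means were 11.05 ± 0.11 and 9.50 ± 0.22 (SD, n = 3 each), a difference of 1.55 ± 0.13 (SE) on the log2 scale or 2.93-fold (limma adjusted p = 0.000906). PLIN2 was the 1 called member with a difference over 1, and it stayed called with the 3'-minus-5' index in the model, at 1.39 (adjusted p = 0.0458). PLIN3, a perilipin that moves from the cytosol onto forming droplets, read 7.71, 7.71 and 7.78 against 7.18, 7.31 and 6.95. Its large-follicle arrays were close together and above every small-follicle array. The means of 7.73 ± 0.04 and 7.15 ± 0.18 (SD, n = 3 each) differed by 0.59 ± 0.11 (SE), or 1.50-fold (limma adjusted p = 0.0135). With the index in the model the estimate was 0.77 and the adjusted p 0.0798.

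The enzymes that fill and empty the droplet did not pass the test. Triglyceride assembly had 4 members, and all had small positive differences, 0.12 for the phosphatidate phosphatase LPIN1, 0.13 for the acyltransferase AGPAT1, and 0.01 and 0.17 for DGAT1 and DGAT2, which add the last fatty acid. In lipolysis the difference was -0.02 for PNPLA2, the lipase that takes the first step of triglyceride breakdown, and 0.09 ± 0.23 (SE) for LIPE, the hormone-sensitive lipase. LIPE had 3 further probe sets, at 0.05, 0.36 and 0.16, none of them called. Among these 6 genes the lowest limma adjusted p was 0.482, and the 95% intervals together spanned -0.43 to 0.62. LPIN1 was at -0.07 and PNPLA2 at 0.07 with the 3'-minus-5' index in the model, both with the sign turned, and LIPE was at 0.75 (adjusted p = 0.16). Over the 8 members of storage and lipolysis, 7 had a positive difference and the median was 0.13. DGAT2 and LPIN1 had mean signals below the median of all probe sets.

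**Figure D2:**
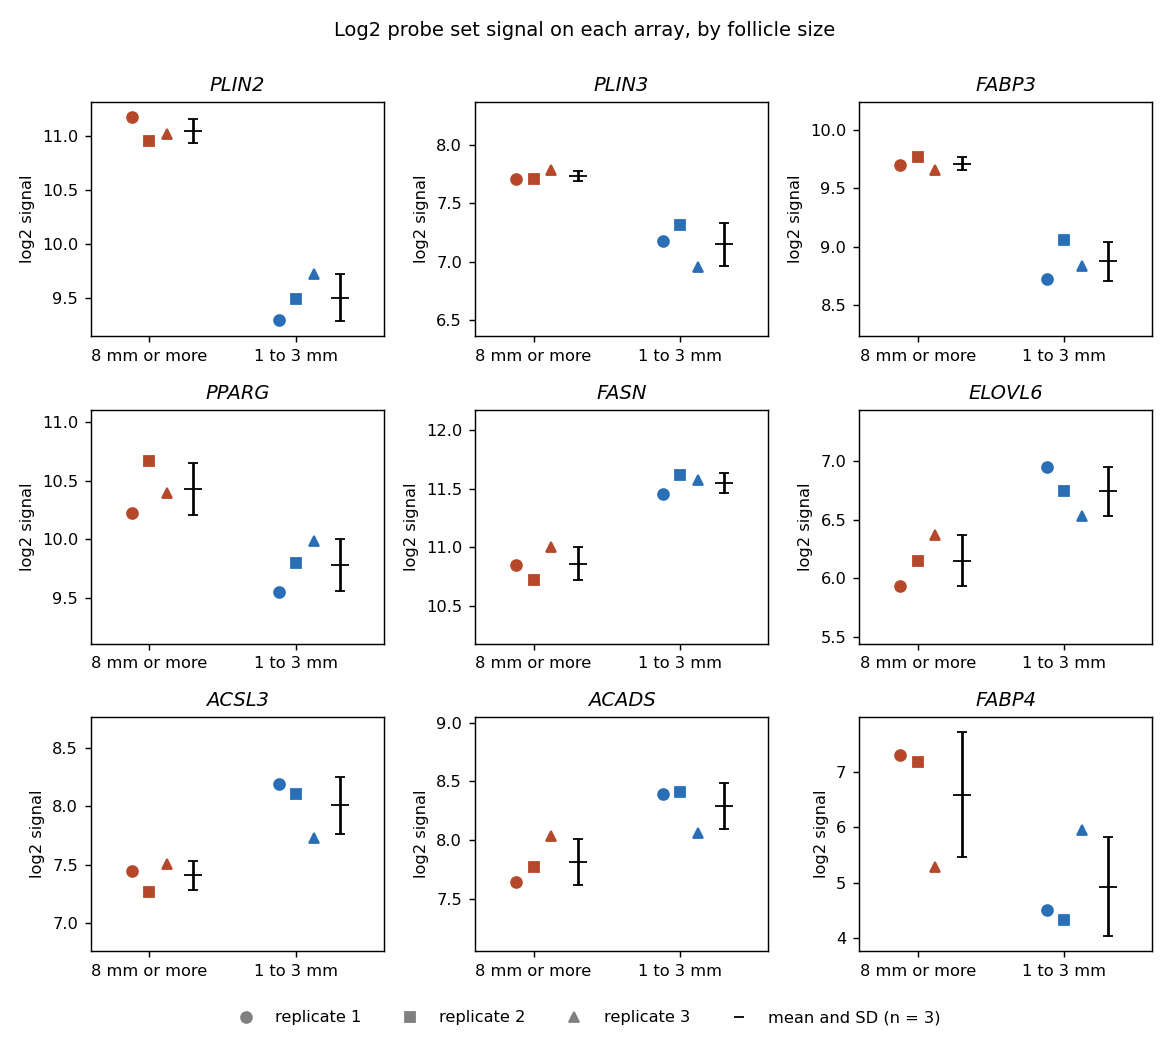
Log2 probe set signal (y axis) of 9 members on each array by follicle size (x axis), with replicates as symbols and the mean and SD (n = 3) as bars, each panel on its own scale. The panels are the 7 called members and ACADS and FABP4, which were chosen after their values were seen. The groups do not overlap for 8 of these genes, while in FABP4 the replicate 3 arrays, at 5.29 and 5.95, lie in the order opposite to the rest. Of all 41 members, 12.2% are higher and 22.0% lower without overlap, against 17.6% and 18.9% of all genes.

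Of the fatty acid binding and uptake genes, 1 of 4 was called higher, beside 7.08% of all genes, and none lower, beside 8.3%. FABP3, the heart-type binding protein that carries fatty acids through the cytosol, read 9.70, 9.77 and 9.66 in large-follicle arrays and 8.73, 9.06 and 8.84 in small-follicle arrays. The groups did not overlap, and the means of 9.71 ± 0.06 and 8.88 ± 0.17 (SD, n = 3 each) differed by 0.83 ± 0.11 (SE), or 1.78-fold (limma adjusted p = 0.00331). With the 3'-minus-5' index in the model the estimate was 0.78 (adjusted p = 0.0893). FABP4, the adipocyte and macrophage form, read 7.30, 7.17 and 5.29 against 4.50, 4.33 and 5.95. Large-follicle arrays 1 and 2 were high, array 3 was lower than small-follicle array 3, and the groups overlapped. The means were 6.59 ± 1.12 and 4.93 ± 0.89 (SD, n = 3 each), and the pooled SD lay at the 99.7 percentile among all genes. The difference of 1.66 ± 0.58 (SE) was the largest of any member and was not called (limma adjusted p = 0.107). Without large-follicle array 3 it was 2.31 (adjusted p = 0.0225), and without small-follicle array 3 it was 2.17 (adjusted p = 0.0463). Without each other array it was 1.30 to 1.45 and not called (adjusted p 0.243 to 0.28). With the 3'-minus-5' index in the model it was 0.59 (adjusted p = 0.744). A second, dim FABP4 probe set gave 0.33.

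FABP5, the epidermal form, read 10.49, 9.33 and 8.59 against 8.68, 8.97 and 9.33. Large-follicle array 1 stood above the other 5 arrays, large-follicle array 3 was the lowest of all 6, and the groups overlapped. The difference was 0.48 ± 0.41 (SE, limma adjusted p = 0.533), and its other probe set gave 0.22. CD36, a membrane protein that takes up long-chain fatty acids, read 8.30, 8.07 and 7.30 against 8.00, 7.68 and 7.71, with a difference of 0.09 ± 0.24 (SE, adjusted p = 0.857). Here too large-follicle array 1 was the highest and large-follicle array 3 the lowest. The 9 macrophage and leukocyte markers, centred on their means over the 6 arrays, averaged 0.90, 0.07 and -0.18 in large-follicle arrays and -0.47, -0.54 and 0.21 in small-follicle arrays. Their mean was thus also highest in large-follicle array 1, and higher in small-follicle array 3 than in large-follicle array 3. Single markers differed from it. LCP1, CORO1A and CSF1R read 4.32, 4.11 and 6.14 in large-follicle array 3 and 4.30, 3.95 and 6.13 in small-follicle array 3. ITGB2 was highest in small-follicle array 3 (4.83). The called markers, LCP1 and CORO1A, had groups that did not overlap. The part of macrophages and leukocytes in the values of FABP4, FABP5 and CD36 was not tested. FABP3 did not follow the order of the marker mean, since its 3 large-follicle values were close together (SD 0.06) and above all small-follicle values. FABP4 and FABP5 lie near each other in the RefSeq gene order of ARS-UCD2.0, with 2 protein-coding genes between them.

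**Figure D3:**
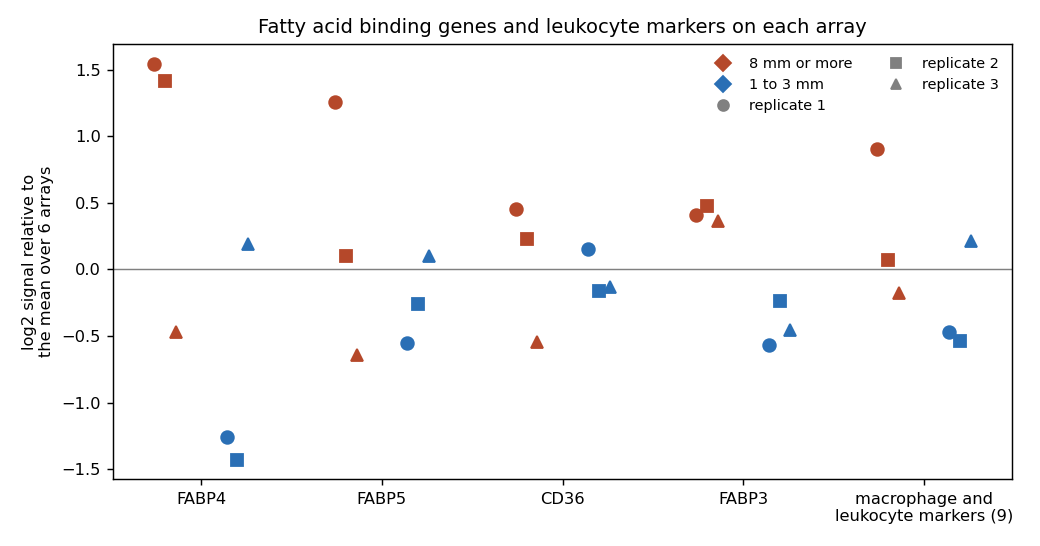
Log2 signal of FABP4, FABP5, CD36 and FABP3, and the mean of 9 macrophage and leukocyte markers, on each array relative to the mean over the 6 arrays (y axis), with follicle size by colour and replicate by symbol. FABP3 separates the groups, while FABP5, CD36 and the mean of the markers (0.90) are highest in large-follicle array 1. FABP4 is higher in small-follicle array 3 than in large-follicle array 3.

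Acyl-CoA synthetases attach fatty acids to coenzyme A, the step that admits them to any later pathway. ACSL3, the form found on the endoplasmic reticulum and on growing lipid droplets, read 7.45, 7.27 and 7.51 in large-follicle arrays and 8.19, 8.10 and 7.73 in small-follicle arrays. Its small-follicle arrays were the higher ones without overlap, and array 3 was the nearest to the large-follicle arrays. The means of 7.41 ± 0.12 and 8.01 ± 0.24 (SD, n = 3 each) differed by -0.60 ± 0.14 (SE), 1.51-fold higher in small-follicle arrays (limma adjusted p = 0.0276). The other ACSL3 probe sets fell as well, by 1.16 ± 0.12 (SE, adjusted p = 0.0015) and by 0.80 ± 0.14 (SE, adjusted p = 0.0102) on the log2 scale. For the first probe set the call was lost without large-follicle array 1 (-0.62) or 2 (-0.53), without small-follicle array 1 (-0.51) or 2 (-0.55), with a replicate block (adjusted p = 0.0632), and with the 3'-minus-5' index in the model (-0.22, adjusted p = 0.454). ACSL1, a synthetase abundant in fat, liver and muscle, had -0.33 ± 0.15 (SE, adjusted p = 0.194), and ACSL5, at low signal, had 0.26 ± 0.12 (SE, adjusted p = 0.202). Over the 7 activation and binding members the median difference was 0.26, and it was -0.03 without large-follicle array 1.

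Among synthesis genes FASN and ELOVL6 fell by limma, 2 of 8, beside 8.3% of all genes. None rose, beside 7.08% of all genes (1 was higher at an unadjusted p under 0.05). FASN, the fatty acid synthase that builds palmitate, read 10.85, 10.72 and 11.00 in large-follicle arrays and 11.45, 11.62 and 11.57 in small-follicle arrays. Every small-follicle array was higher. The means of 10.86 ± 0.14 and 11.55 ± 0.09 (SD, n = 3 each) differed by -0.69 ± 0.11 (SE), 1.61-fold higher in small-follicle arrays (limma adjusted p = 0.00606). The estimate hardly moved with the 3'-minus-5' index in the model, at -0.67, while its adjusted p was 0.111. ELOVL6, which lengthens palmitate to stearate, read 5.93, 6.15 and 6.37 against 6.95, 6.74 and 6.53. The groups did not overlap, though the replicate 3 arrays lay close together. The means of 6.15 ± 0.22 and 6.74 ± 0.21 (SD, n = 3 each) differed by -0.59 ± 0.15 (SE), 1.51-fold higher in small-follicle arrays (limma adjusted p = 0.0362). That call was lost without large-follicle array 1 (-0.48) or 2 (-0.59), without small-follicle array 1 (-0.49) or 2 (-0.59), with a replicate block (adjusted p = 0.0972) and with the index (-0.42, adjusted p = 0.374).

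The enzymes before and after FASN had smaller differences. ACLY, which supplies cytosolic acetyl-CoA from citrate, read 10.74, 10.62 and 10.73 in large-follicle arrays and 10.98, 10.96 and 10.75 in small-follicle arrays. The small-follicle values were higher without overlap, by a narrow margin at the nearest arrays. Its means of 10.70 ± 0.07 and 10.90 ± 0.13 (SD, n = 3 each) gave -0.20 ± 0.10 (SE, limma adjusted p = 0.262). SCD, the desaturase that makes oleate, was bright on every array, with 12.59, 12.64 and 12.56 against 12.92, 12.90 and 12.58. Small-follicle array 3 lay among the large-follicle arrays. The means were 12.60 ± 0.04 and 12.80 ± 0.19 (SD, n = 3 each), with a difference of -0.20 ± 0.12 (SE, adjusted p = 0.314). FADS2, the first desaturase of polyunsaturated fatty acids, had -0.43 ± 0.22 (SE, adjusted p = 0.257), and -0.68 without small-follicle array 3 (adjusted p = 0.0394). Without each other array FADS2 was at -0.56 to -0.29 and not called (adjusted p 0.203 to 0.525). Its sign turned, to 0.22 (adjusted p = 0.611), with the 3'-minus-5' index in the model, and ACLY and SCD were at 0.0026 and -0.0084. ELOVL5, the elongase of polyunsaturated fatty acids, had 0.10.

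Acetyl-CoA carboxylase makes the malonyl-CoA that FASN consumes and that holds back the carnitine shuttle. Both of its genes gave mean signals below the median of all probe sets. ACACA had 0.21 ± 0.09 (SE, limma adjusted p = 0.184) without overlap of the groups, and a dimmer second probe set gave -0.12. ACACB had -0.24 ± 0.17 (SE, adjusted p = 0.417). Over the 8 synthesis members the median difference was -0.22, and 6 were negative. With the 3'-minus-5' index in the model that median was -0.0029.

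Oxidation genes differed little. None of 15 measured members was called by limma in either direction, and 4 were lower and none higher at an unadjusted p under 0.05, where 16.7% of all genes were lower and 14.5% higher. Of the 15, 13 had a negative difference (86.7%, against 48.5% of all genes), with a median of -0.19 and a range from -0.47 to 0.16. In 5 (33.3%, against 18.9% of all genes) every small-follicle array was higher, and in none every large-follicle array (against 17.6% of all genes). The 95% intervals together spanned -0.80 to 0.41. When the 3'-minus-5' index was in the model the median was -0.17, 12 of 15 were negative and CPT1B was at 0.0031. The estimates moved both ways. ACADL was then at -0.59, ETFA at -0.49, ACAA1 at -0.41 and ACAA2 at -0.40, while CPT2 was at -0.12.

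The carnitine shuttle carries long-chain fatty acids across the inner mitochondrial membrane. All of its 3 measured members had negative differences. CPT1B, the muscle form of the outer transferase, had -0.31 ± 0.12 (SE, limma adjusted p = 0.154) at low signal. CPT2, the inner transferase, had -0.26 ± 0.10 (SE, adjusted p = 0.135), with the groups apart. SLC25A20, the exchanger between them, had -0.15, and its other probe set had 0.18. CPT1A, the widely expressed outer transferase, was not measured.

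The acyl-CoA dehydrogenases take the first step of each round of beta-oxidation, each on a range of chain lengths. ACADS, for short chains, read 7.64, 7.77 and 8.03 in large-follicle arrays and 8.39, 8.41 and 8.06 in small-follicle arrays. The groups did not overlap, with the replicate 3 arrays nearly level. ACADS had the largest difference among oxidation members, -0.47 ± 0.14 (SE, limma adjusted p = 0.0642). It passed the test without large-follicle array 3 (-0.58, adjusted p = 0.0442) and without small-follicle array 3 (-0.59, adjusted p = 0.0383). Without each other array it was -0.45 to -0.39 and not called (adjusted p 0.152 to 0.194). With the 3'-minus-5' index in the model ACADS was at -0.28 (adjusted p = 0.512). ACADM, for medium chains, read 10.85, 10.95 and 10.62 against 10.77, 10.65 and 10.66. Its groups overlapped, and the means of 10.81 ± 0.17 and 10.69 ± 0.07 (SD, n = 3 each) gave 0.11 ± 0.11 (SE, adjusted p = 0.591). ACADVL, for very long chains, had 0.16, the other positive difference among oxidation members. ACADL, for long chains, had -0.27, while its dim second probe set had 0.26.

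The later steps of the spiral were negative throughout, none called. ECHS1, the short-chain enoyl-CoA hydratase, had -0.28 ± 0.10 (SE, limma adjusted p = 0.125), HADH, the short-chain hydroxyacyl-CoA dehydrogenase, -0.16, and ACAA2, the mitochondrial thiolase, -0.22, each without overlap of the groups. HADHA and HADHB encode the subunits of the trifunctional protein for long chains and are adjacent in the RefSeq gene order. Their differences were -0.07 and -0.19. The peroxisomal thiolase ACAA1 had -0.08. ETFA and ETFB, which pass electrons from the dehydrogenases toward the respiratory chain, had -0.25 and -0.01.

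**Figure D4:**
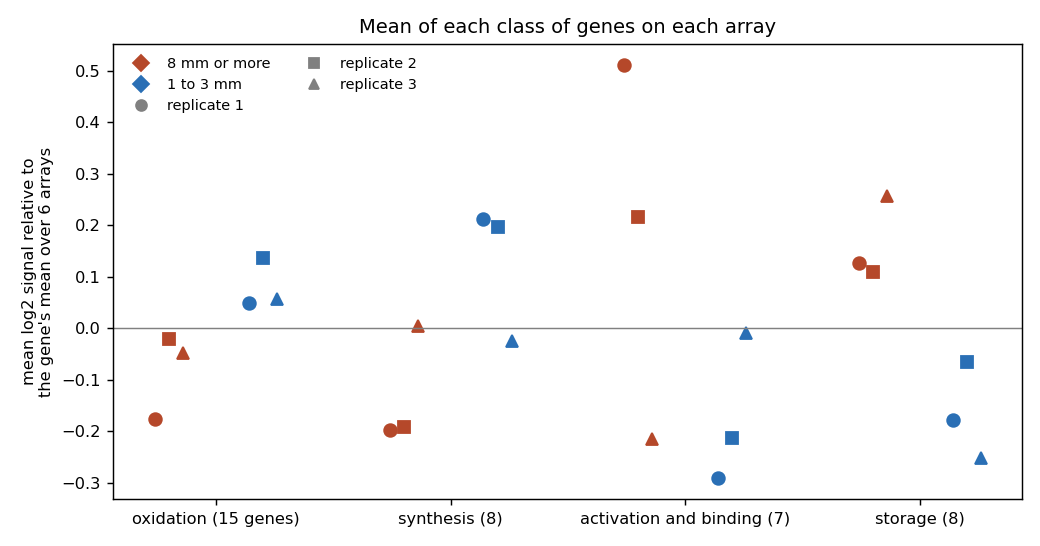
Mean log2 signal of the members of each class on each array, relative to each gene's mean over the 6 arrays (y axis), with the number of genes in brackets, follicle size by colour and replicate by symbol. Storage, with PLIN2 and PLIN3 included, is higher in every large-follicle array, with 0.11 the lowest against -0.07 the highest, oxidation is lower in every large-follicle array, and in synthesis and in activation and binding the replicate 3 arrays cross.

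Set side by side, the classes ran in different directions. The class mean of storage, relative to each gene's mean over all arrays, was 0.13, 0.11 and 0.26 in large-follicle arrays and -0.18, -0.07 and -0.25 in small-follicle arrays. Oxidation gave -0.18, -0.02 and -0.05 against 0.05, 0.14 and 0.06. Both classes separated the groups, in opposite directions and by less than a log2 unit. Synthesis gave -0.20, -0.19 and 0.01 against 0.21, 0.20 and -0.02, so the replicate 3 arrays did not follow the others. These means have no test. The storage separation rested on PLIN2 and PLIN3, since the other 6 storage members averaged -0.03, -0.01 and 0.16 in large-follicle arrays and -0.03, 0.06 and -0.16 in small-follicle arrays, which overlap.

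The PPAR receptors are ligand-activated transcription factors that bind fatty acids. PPARG, known for its role in fat cells and present in granulosa cells, read 10.23, 10.67 and 10.40 in large-follicle arrays and 9.55, 9.80 and 9.99 in small-follicle arrays. All large-follicle arrays were higher. The means of 10.43 ± 0.22 and 9.78 ± 0.22 (SD, n = 3 each) differed by 0.65 ± 0.15 (SE), or 1.57-fold (limma adjusted p = 0.0271). The call was lost without large-follicle array 2 (0.54) or 3 (0.67), without small-follicle array 1 (0.54) or 2 (0.66), and with the 3'-minus-5' index in the model (0.22, adjusted p = 0.463). The probe set is of a kind that can bind several transcripts, as are those read for the members CPT1B, HADHA and SLC25A20. PPARA, the receptor tied to fatty acid oxidation in liver, was dim, with 4.43, 4.29 and 4.41 against 4.50, 4.38 and 3.91. The groups overlapped, and the means of 4.38 ± 0.08 and 4.26 ± 0.31 (SD, n = 3 each) gave 0.11 ± 0.15 (SE, adjusted p = 0.711). A second PPARA probe set, under the lower quartile of all means, read 2.99, 3.18 and 2.95 against 3.33, 3.63 and 3.49 and fell by 0.44 ± 0.12 (SE, adjusted p = 0.0402) on the log2 scale, so the probe sets of PPARA disagreed. PPARD, the widely expressed form, had -0.01, with -0.02 and -0.03 from its other probe sets. With the index in the model PPARA was at 0.54 (adjusted p = 0.138) and PPARD at 0.40 (adjusted p = 0.19).

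Further genes of the same pathways gave a mixed picture. Of 108 listed, 83 had a probe set, and limma called 5 higher (6.02%, beside 7.08% of all genes) and 9 lower (10.8%, beside 8.3%), with a median difference of -0.02. In oxidation 5 of 21 fell and 1 rose. ACOT2, which releases fatty acids from coenzyme A in mitochondria, fell by 1.01 ± 0.11 (SE, adjusted p = 0.00153) on the log2 scale at low signal, and kept its call whichever array was left out. ECI1, the isomerase needed for unsaturated chains, rose by 0.86 ± 0.14 (SE, adjusted p = 0.00786) and was also called whichever array was left out. The peroxisomal oxidase ACOX2 fell by 0.63 ± 0.13 (SE, adjusted p = 0.0155), the branched-chain dehydrogenase ACADSB by 0.61 ± 0.15 (SE, adjusted p = 0.0301) and ACAD9, also needed to assemble respiratory complex I, by 0.66 ± 0.16 (SE, adjusted p = 0.0321). The other ACAD9 probe set gave 0.08. ACOX3, named after its value was seen, fell by 0.38 ± 0.10 (SE, adjusted p = 0.0407). ACOX2 lost its call without large-follicle array 1 (-0.57) or 2 (-0.56) or small-follicle array 2 (-0.64). ACADSB lost it without large-follicle array 1 (-0.56) or 3 (-0.54) or small-follicle array 2 (-0.62) or 3 (-0.51). ACAD9 lost it without large-follicle array 1 (-0.61) or 2 (-0.56) or small-follicle array 1 (-0.65) or 2 (-0.55), and ACOX3 whichever array was left out (-0.44 to -0.32).

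Storage genes outside the member list moved both ways. PLIN5, the perilipin of tissues that oxidise fat, read 3.36, 3.33 and 3.28 in large-follicle arrays and 4.04, 4.62 and 4.51 in small-follicle arrays. It was thus higher in every small-follicle array, opposite to PLIN2 and PLIN3, with large-follicle signals under the lower quartile of all means. Its difference was -1.07 ± 0.15 (SE, limma adjusted p = 0.00416). GPAM, the mitochondrial acyltransferase that starts triglyceride synthesis, fell by 0.81 ± 0.13 (SE, adjusted p = 0.00787) on the log2 scale, while GPAT3, which takes the same step on the endoplasmic reticulum, rose by 0.42 ± 0.11 (SE, adjusted p = 0.0346). CIDEB, a droplet protein, rose by 0.80 ± 0.16 (SE, adjusted p = 0.0154). PLIN5 and GPAM were called whichever array was left out. GPAT3 was called only without small-follicle array 3 (0.48), with 0.35 to 0.45 without each other array, and its dim second probe set gave -0.27. CIDEB lost its call without large-follicle array 2 (0.79) or small-follicle array 2 (0.70), and its other probe set gave 0.18.

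**Figure D5:**
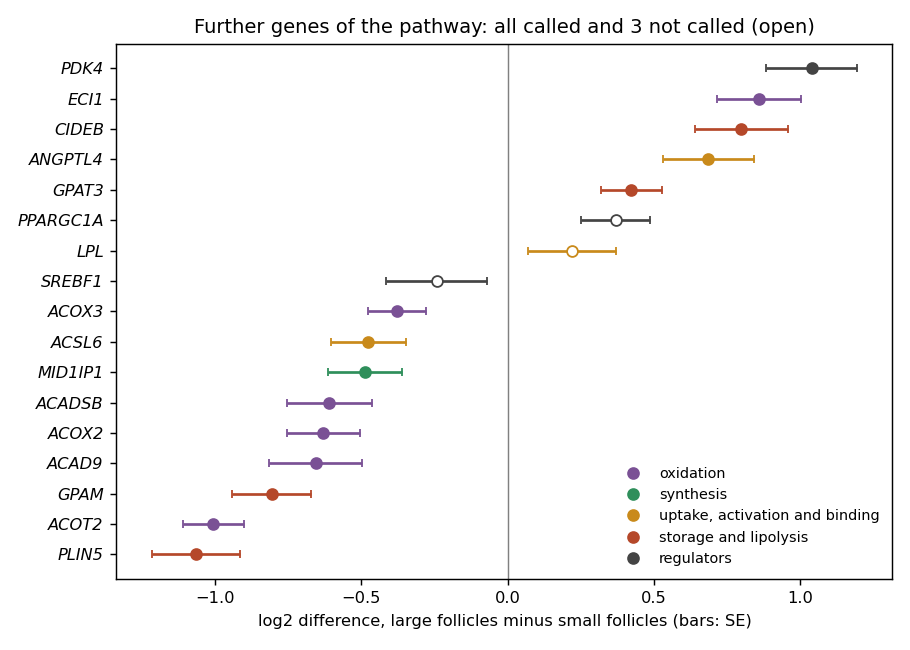
Log2 difference, large-follicle minus small-follicle arrays, of the called genes outside the member list and of SREBF1, LPL and PPARGC1A, with the SE from limma as bars and filled points for called genes. PDK4 at 1.04 lies farthest to the right and PLIN5 at -1.07 farthest to the left.

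Among uptake, synthesis and regulatory genes outside the member list, PDK4 had the largest change. PDK4, the kinase that shuts off pyruvate dehydrogenase when fat is burned, read 9.83, 9.38 and 9.64 in large-follicle arrays and 8.32, 8.63 and 8.78 in small-follicle arrays. The groups did not overlap. It rose by 1.04 ± 0.16 (SE, limma adjusted p = 0.00513), and its other probe sets gave 1.42 and 1.21, both called. ANGPTL4, an inhibitor of lipoprotein lipase, rose by 0.69 ± 0.15 (SE, adjusted p = 0.0241), and its target LPL had 0.22 (adjusted p = 0.407). MID1IP1, an activator of acetyl-CoA carboxylase, fell by 0.49 ± 0.13 (SE, adjusted p = 0.0404) on the log2 scale, and the synthetase ACSL6 by 0.48 ± 0.13 (SE, adjusted p = 0.0454). SREBF1, the main activator of lipid synthesis genes, had -0.24 (adjusted p = 0.428), and 0.24 with the 3'-minus-5' index in the model (adjusted p = 0.497). PPARGC1A, a coactivator of oxidation genes, had 0.37 (adjusted p = 0.0801) at a signal below the lower quartile, where 1 of its other probe sets rose by 0.90 (adjusted p = 0.0463). ANGPTL4 lost its call without large-follicle array 1 (0.62), 2 (0.72) or 3 (0.72) or small-follicle array 2 (0.74). MID1IP1 was called only without large-follicle array 3 (-0.61), with -0.53 to -0.41 without each other array, and ACSL6 lost its call whichever array was left out (-0.57 to -0.37). With the 3'-minus-5' index in the model, ACADSB was the 1 call left among these 14 genes, and all 14 kept their sign.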

How the data were processed

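RNA from 6 pools of cumulus cells was measured on Affymetrix bovine arrays. The authors deposited a table of log2 signals per probe set, and RMA is the method named in the submitters' processing notes, with software and settings not given in the sources used here. Array medians lay between 5.64 and 5.68. After 112 control probe sets were left out, 24016 remained. Of these, 13292 carried 1 gene symbol, 86 several and 10638 none, and 13263 matched RefSeq by gene identifier, with no symbol changed.

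Large-follicle minus small-follicle differences were fitted over all 24016 probe sets with limma 3.58.1 (R 4.3.3) by lmFit and eBayes with a constant prior and no block, using 2-sided moderated tests, Benjamini-Hochberg adjustment and a threshold of 0.05. Dim probe sets were kept, because RMA values carry no detection call. The procedure was tested on simulated data. The members and lists were chosen with earlier results of these data known. All measured members were named. Those called, those with a called probe set that disagreed with the brightest one, and CPT1A, ACADM, ACLY, SCD and PPARG were to be given by array. FABP4, FABP5, CD36 and ACADS were given by array after their values were seen. Of the other pathway genes, up to 5 called ones per role with the smallest p were named, and HILPDA, ANGPTL4, PDK4, SREBF1, LPL and PPARGC1A, of which HILPDA had no probe set under its symbol. Alternatives were a fit without each array, a replicate block, filters, other scalings, array weights, a trended prior, other choices of probe set and threshold, and the 3'-minus-5' index in the model. Sequences were not analysed here. Plots were made in python 3.11.15 with matplotlib 3.10.9.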

Additional observations from a re-analysis of the deposited data

How the results depend on the processing

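Of 912 values, 1 for each of 58 named or member genes under each alternative that gave one, 778 kept their direction and their side of the threshold or moved within the spread between replicates. Of the 21 called genes ACAD9 turned sign, to 0.0767, without probe sets that can bind several transcripts. Of the 37 genes not called, 16 turned sign under at least 1 alternative, among them FADS2 and SREBF1. PLIN2 was called in all 16 alternatives run on it (1.39 to 1.66). The labels number the replicates 1 to 3 in both groups and do not say whether same-numbered arrays were paired. The deviations of same-numbered arrays correlated at -0.002, -0.054 and -0.343. With 3 arrays per group these values cannot decide whether the arrays were paired. A fit with a replicate block called 1034 probe sets lower, 1 member lower (3 without the block), and 3 other pathway genes higher and 4 lower. Leaving out 1 array gave 787 to 1142 probe sets higher and 828 to 1337 lower, 1 to 5 members lower, 2 to 5 other pathway genes higher and 3 to 7 lower, a median of -0.0333 to 0.39 for activation and binding, and -0.04 to 0.0033 for the other pathway genes. Members lower were 1 without large-follicle array 1 or 2 or small-follicle array 1 or 2, and 5 without small-follicle array 3. With the 3'-minus-5' index added to the model, limma called 99 probe sets higher and 116 lower, 1 member higher and 0 lower (6 and 5 at an unadjusted p under 0.05), and 0 other pathway genes higher and 1 lower (8 and 12 unadjusted). The medians were then -0.0029 for synthesis and 0.0169 for the other pathway genes, the 7 called members kept their sign, and the median SE of the members was 0.17 against 0.12 without the covariate. The median of the other pathway genes was -0.0467 with a filter at the lower quartile and -0.0733 at the median. Array weights gave 5 members lower and 8 other pathway genes higher. A threshold of 0.10 gave 8 other pathway genes higher, and 0.01 gave 528 probe sets higher and 535 lower, 2 members higher and 1 lower, and 2 other pathway genes higher and 3 lower. The causes were not tested. With 3 arrays per group and no detection call, dim probe sets are the least certain.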
